A study of Vitis rotundifolia with 12 samples.

Results

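Pedicels of Ga. 6-1-269, the muscadine (Vitis rotundifolia) genotype with strongly attached fruit and here called S, were compared between maturity and the pea-size stage. The pedicel is the stalk of the berry, and the abscission zone (AZ) lies where it meets the fruit. Its 6 RNA-seq libraries, 3 labelled pea-size and 3 labelled maturity, were chosen by these labels from the 12 libraries of the series. The other 6 come from Ga. 12-3-22 (W), whose fruit are weakly attached, and they were used only where S was set against W. All vines were grown at a research unit in Citra, Florida, and the only treatment the labels give is the freezing of the tissue in liquid nitrogen, which all groups share. Each genotype is 1 breeding selection, so what is found in S describes that selection and not strong attachment in general. The 3 libraries per group were biological replicates, but which vines they came from is not given in the sources used here, and p-values measure the spread between these libraries.

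Abscission is the shedding of an organ at a layer of small cells that forms early and is later prompted by hormones, with ethylene and abscisic acid known to promote it and auxin to hold it back. Enzymes such as polygalacturonases and cellulases then loosen the walls between the AZ cells, and a protective scar is laid down. A pedicel also holds vascular tissue, cortex and epidermis, which mature alongside the fruit, so whole-pedicel RNA reads all of these together. In such bulk tissue, fewer cells of a type and less RNA per cell cannot be told apart.

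The values are raw counts of reads for 26394 gene models on 20 chromosomes of the 'Noble' genome. The identifiers give a chromosome and a running number but no gene name, and 0 of them are listed in the table of muscadine gene names used for reference. Gene families, pathways and tissue markers were therefore not analysed, the labelled tissue could not be checked by markers, and results are given by chromosome, level and direction, with 4 gene models named by a rule. Gene counts ranged from 9785778 to 14067641 in the 3 pea-size libraries and from 10538143 to 21971736 in the 3 mature ones. A level is given in CPM, the usual unit of counts scaled to library depth, with TMM scaling factors over the 12 libraries, and a change as the log2FC of maturity against pea-size fitted by edgeR to the S libraries. Of the gene models, 18439 had enough reads to be tested, and one was called when its Benjamini-Hochberg adjusted p was 0.05 or less and its log2FC was 1 or more in size, upward or downward.

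One mature library lay apart from the rest, and this was examined before the stage change itself. The 3 pea-size libraries resembled each other closely, with Spearman correlations of log2 CPM between 0.960 and 0.969, and mature replicates 2 and 3 had a correlation of 0.967. Mature replicate 1 had correlations of 0.836 and 0.817 with the other mature libraries and of 0.837 to 0.848 with the pea-size libraries. It was thus about as far from its own group as from the opposite stage. With the 3 mature libraries of W its correlations were 0.853 to 0.883, and with the pea-size libraries of W 0.849 to 0.880, so it ranked nearer to all 6 W libraries than to any other S library. Mature replicate 2 had correlations of 0.812 to 0.834 with the mature libraries of W, and mature replicate 3 of 0.785 to 0.802. The S pea-size libraries had correlations of 0.812 to 0.857 with the mature libraries of W and of 0.833 to 0.878 with its pea-size libraries. Values near those of mature replicate 1 were thus also found in S pea-size libraries.

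The genotype label of mature replicate 1 was checked with gene models read in only 1 genotype, a check chosen after its correlations were seen. Of 14 gene models above 3 CPM in the other 5 S libraries and below 0.2 CPM in every W library, 14 were above 3 CPM in mature replicate 1. Of 2 gene models with the opposite pattern, 2 were below 0.2 CPM in it. By these gene models the library did not go against its label.

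The first principal component of the 6 libraries held 50.5% of the variance and separated the stages. On it the pea-size libraries lay between -111.8 and -87.8, mature replicate 1 at 50.4 and mature replicates 2 and 3 at 133.7 and 121.5. The second component held 31.2% and set mature replicate 1 (-180.5) against all others (17.5 to 67.1). The library therefore differed from its group both in how far it lay along the stage axis and in a direction of its own.

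**Figure D1:**
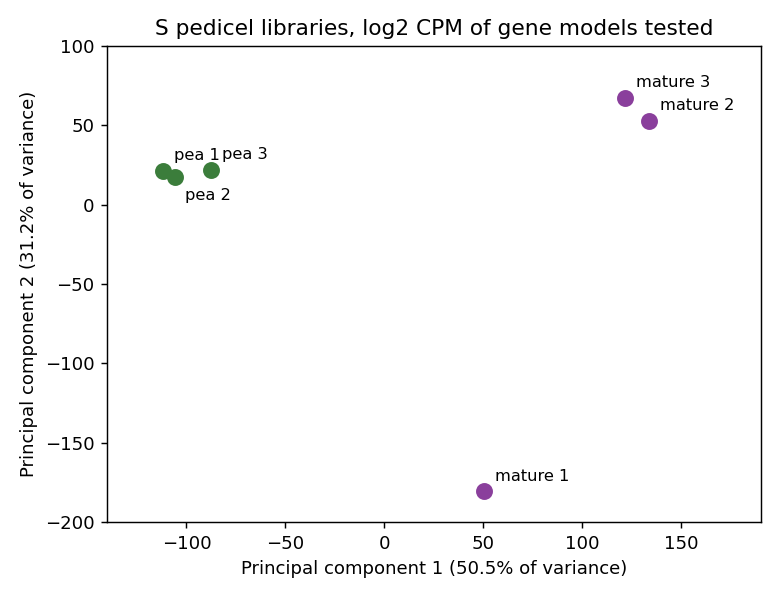
Principal components of log2 CPM in the 6 S libraries; each point is 1 library, green for pea-size and purple for maturity, and the axes give the share of variance in percent. Mature 2 and 3 sit together at the right, and mature 1 lies far below all others on component 2.

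The gene models behind this second direction were counted. In mature replicate 1, 948 gene models (5.14% of those tested) lay at least 2 log2 units below all 5 other S libraries and 213 (1.16%) lay that far above them. The same count for each of the other S libraries gave 11 to 167 below and 6 to 26 above. Of the 948, 506 had no read in mature replicate 1, while their median level over the other S libraries was 5.32 CPM. The 213 had a median of 45.2 CPM in it against 3.69 CPM in the others. In W the 948 were also low, with a median of 2.34 CPM and a mean below that of the other S libraries for 85.7% of them, against 54.7% of all gene models tested. The 213 were higher in W, with a median of 13.5 CPM and a mean below that of the other S libraries for only 4.23%. These sets were picked on mature replicate 1 against the other S libraries, so their values in it are a description. Levels in the other S libraries entered the choice too, which favours a W mean on the side of mature replicate 1. The share over all gene models tested was not picked so and is no like baseline.

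Reads on no gene model had their highest share in this library. The share was taken over reads on a gene model, on none, ambiguous between gene models or mapped to more than 1 place. It was 30.4% in mature replicate 1 and 21.8% in mature replicate 2, against 11.04% in mature replicate 3 and 10.9% to 14.6% at the pea-size stage. The gene model with the most counts, on chromosome 2, took 12.3% of the gene counts in mature replicate 1 (95% exact Clopper-Pearson interval 12.3% to 12.4%, counting error only), 6.94% in mature replicate 2, 0.385% in mature replicate 3 and 0.266%, 0.324% and 2.27% in the pea-size libraries. The stages overlapped for it, and its log2FC was 3.04 ± 1.38 (standard error), which missed the threshold (edgeR adjusted p = 0.219). Mature replicates 2 and 3, which differed in both shares, had a correlation of 0.967. The part of these reads in the distance of mature replicate 1 was not tested.

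The stage change was first tested in all 6 libraries, and 843 gene models were called up at maturity and 928 down. These are 4.57% and 5.03% of the gene models tested and 9.6% together. The change ran about equally in both directions, with 47.6% of the calls up. With library totals in place of TMM the split was 582 up and 1040 down, or 35.9% up, and the median log2FC of all gene models moved by -0.138. Without any regard to the test, the mature libraries stood higher than every pea-size library for 16.4% of gene models (3026) and lower for 18.6% (3430), and mature replicates 2 and 3 alone did so for 30.9% and 29.9%. Fewer mature libraries meet this more easily, so the last pair of shares is no like measure. A log2FC of this size was fitted for a further 2560 gene models upward and 2213 downward that were not called.

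The called changes differed widely in size. The median log2FC was 2.31 among those called up and -2.50 among those called down. Of the 843, 339 had a log2FC of 1 to 2, 343 of 2 to 4 and 161 of at least 4. Of the 928, these sizes held for 339, 384 and 205. Over all gene models tested the middle 50% of log2FC values ran from -0.59 to 0.71, so most of the transcriptome moved by less than the threshold.

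Without mature replicate 1 the counts were 2489 up and 2737 down, which are 13.5% and 14.8% of the gene models tested. Most calls of the 6-library fit were in this larger set. Of the 843 called up, 831 were called up again and 12 were not called, and of the 928 called down, 917 were called down again and 11 were not called. No gene model changed direction between the fits. A further 1658 were called up and 1820 down only without mature replicate 1. The fit with 5 libraries rests on 2 mature libraries, and the median biological coefficient of variation per gene model fell from 0.447 with mature replicate 1 to 0.272 without it. The counts were less steady with all 6 libraries than with 5. Leaving out pea-size replicate 1, 2 or 3 from the 6 gave 108, 124 and 133 up and 172, 166 and 180 down, and leaving out mature replicate 2 or 3 gave 285 and 381 up and 414 and 578 down. From the 5, leaving out any 1 library gave 2096 to 2471 up and 2405 to 2719 down. DESeq2's Wald test with adjusted p gave 1700 up and 1689 down on all 6 libraries and 2621 up and 3043 down on the 5.

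Mature replicate 1 took no part in the calls made from the 5 libraries, so its values show where a further mature library fell. For 60.8% of the 2489 gene models called up it lay above all 3 pea-size libraries, for 20.3% within their range and for 18.9% below them. Over all 9505 gene models whose mean rose in mature replicates 2 and 3, called or not, it lay above all pea-size libraries for 44.7%. For 68.7% of the 2737 called down it lay below all pea-size libraries, for 9.10% within their range and for 22.3% above them, where over the 8934 gene models with a lower mean the share below was 54.1%. The pea-size libraries enter both the calls and these shares, so the shares are a description.

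The median change in mature replicate 1 was also smaller. Among gene models called up from the 5 libraries the median log2 change against the pea-size mean was 1.92 in mature replicates 2 and 3 and 0.72 in mature replicate 1. Among those called down it was -2.24 and -1.14. The calls were made on mature replicates 2 and 3, which favours a larger change in them than in a library left out. The choice of gene models called only without mature replicate 1 favours those in which it changed little or stood apart, and their values are a description. Not all were of that kind. Mature replicate 1 lay above all pea-size libraries for 41.1% of those called up only in the fit without it. It lay below them all for 52.9% of those called down only in that fit. Those called up only in that fit had a median change of 1.69 in mature replicates 2 and 3 and 0.19 in mature replicate 1, and those called down only in it -2.07 and -0.35.

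**Figure D2:**
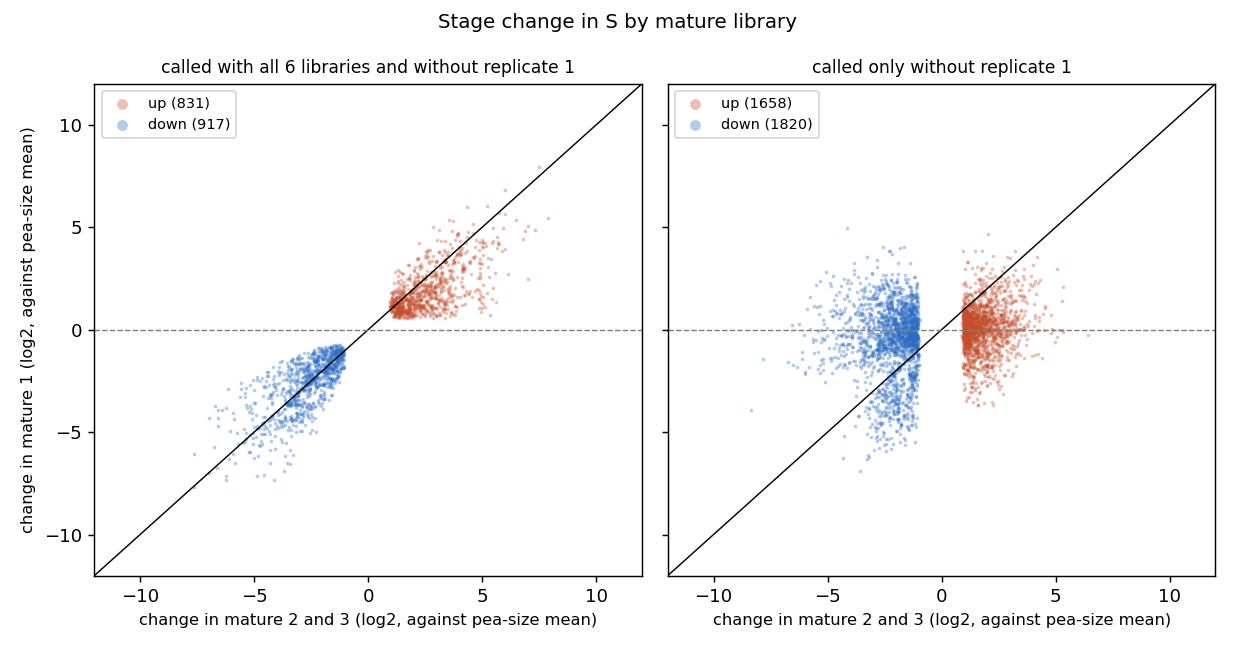
Change against the pea-size mean in mature replicate 1 (vertical axis) and in the mean of mature replicates 2 and 3 (horizontal axis), both as log2 of CPM + 0.5, for gene models called without mature replicate 1; each point is 1 gene model, the solid line marks equal change and the dashed line no change in mature replicate 1. On the left are the 831 and 917 also called with all 6 libraries. Most of the 831 lie on the side of smaller change in mature replicate 1, and the 917 lie on either side of the solid line. On the right, the 1658 and 1820 called only without mature replicate 1 spread around the dashed line. The choice of gene models favours these places in both panels.

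The gene models called in the same direction with and without mature replicate 1 were next weighed by the reads they took. The 831 called up took 2.99%, 3.10% and 2.94% of the gene counts in the pea-size libraries and 7.88%, 15.8% and 15.3% in mature replicates 1, 2 and 3. Mature replicate 1 thus lay between the pea-size libraries and the other mature libraries. The 917 called down took 12.8%, 11.9% and 11.3% of the pea-size counts and 1.98%, 2.13% and 2.36% of the mature counts, with all mature libraries close together. The gene models were chosen on these libraries, so the shares describe how much of the pedicel RNA they make up and are no test.

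**Figure D3:**
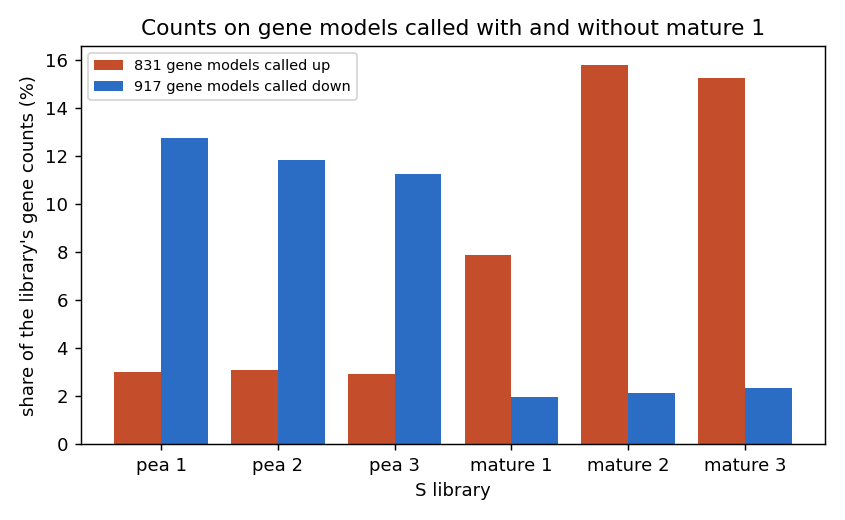
Share of each S library's gene counts, in percent, on the 831 gene models called up and the 917 called down both with and without mature replicate 1. The share of the 831 is near 3% at the pea-size stage and 7.88% to 15.8% at maturity, and that of the 917 goes from 11.3% or more to 2.36% or less.

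Calls depended on the level of expression. In the fifth of gene models with the lowest mean level over the S libraries, up to 3.45 CPM, 0.895% were called up and 1.44% down. In the fifth with the highest level, from 61.8 CPM, 7.21% were called up and 6.64% down. The fitted changes ran the other way, with a median size of 1.25 in the lowest class and 0.51 in the highest. Gene models at low levels were thus called less often although their fitted changes were larger, and these libraries show little about them. Without mature replicate 1, downward calls were most frequent in the highest class (21.1%), where upward calls made up 14.6%.

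Some gene models were read at 1 stage and not at the other. No count in any pea-size library and at least 10 counts in each mature library were found for 36 gene models, with mean levels at maturity of 0.920 to 100.1 CPM of library totals (median 3.46). The opposite pattern was found for 38, with pea-size means of 1.08 to 108.5 CPM (median 3.32). Judged on mature replicates 2 and 3 alone the first group held 172, of which 104 had no count in mature replicate 1 either and 36 had at least 10. Judged so, the second group held 65, of which 38 had no count in mature replicate 1 and 18 had at least 10. Mature replicates 2 and 3 had the most gene counts of the S libraries, 19650450 and 21971736. The first group thus reached down to a mean of 0.505 CPM, against 1.08 CPM for the second, which favours a larger first group. Of the 172, 87 had enough reads to be tested, and of the 65, 63. A count of 0 over a group allows up to 3 counts, so these gene models were not detected at this depth rather than shown to be silent.

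The 4 named gene models were ranked only among those called in the same direction with and without mature replicate 1 and with no overlap of stages, which leaves out the gene model of chromosome 2 above. The largest rise in CPM among them was that of evm.model.chr1.322 on chromosome 1, whose product is not named in the sources used here. Its level was 472, 368 and 369 CPM in pea-size replicates 1, 2 and 3 and 5230, 8740 and 4101 CPM in the mature libraries. Every mature library, replicate 1 included, was far higher than the pea-size libraries. The means were 403 ± 59.9 and 6024 ± 2419 CPM (SD, n = 3 each), and log2FC was 3.95 ± 0.44 (standard error; edgeR adjusted p = 0.00424). Without mature replicate 1 it was 4.05 ± 0.30 (edgeR adjusted p = 4.66e-07). W had 638, 1127 and 916 CPM at the pea-size stage and 3554, 4781 and 5079 CPM at maturity, also a rise (log2FC 2.31, edgeR adjusted p = 0.000301). Fitted to all 12 libraries, the rise in S exceeded that in W by 1.58 on the log2 scale (standard error 0.49), which was not called (edgeR adjusted p = 0.116) but was without mature replicate 1 (1.69, adjusted p = 0.0173).

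The largest fall in CPM among the same gene models was that of evm.model.chr19.851 on chromosome 19, which had the most counts of any gene model in pea-size replicates 1 and 2. It stood at 11215, 11577 and 7233 CPM in the pea-size libraries and at 513, 689 and 230.1 CPM in the mature ones. The lowest pea-size library was thus far above the highest mature library. The means were 10009 ± 2410 and 478 ± 232 CPM (SD, n = 3 each), and log2FC was -4.35 ± 0.55 (standard error; edgeR adjusted p = 0.00581), and -4.39 without mature replicate 1 (adjusted p = 0.000226). The gene models listed on either side of it were also called down. One went from a mean of 3211 to 1190 CPM (log2FC -1.38, edgeR adjusted p = 0.0450) and the other from 175 to 31.0 CPM (log2FC -2.45, adjusted p = 0.00834). Together the 3 had 14545, 15450 and 10190 CPM at the pea-size stage and 1630, 1686 and 1780 CPM at maturity. In W the named gene model varied from 879 to 5389 CPM at the pea-size stage and from 867 to 2144 CPM at maturity, so the stages overlapped and it was not called (log2FC -1.03, edgeR adjusted p = 0.835). The difference between the genotypes, -3.37 on the log2 scale, missed the threshold (standard error 0.87, edgeR adjusted p = 0.0641).

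The next ranking was limited to those of them with at least 10 counts in each of the 6 S libraries. No fold in S then rests on a count near 0. The highest log2FC among these was that of evm.model.chr3.2244 on chromosome 3. It had 4.24, 15.2 and 4.24 CPM in the pea-size libraries and 152, 846 and 725 CPM in the mature ones. Mature replicate 1 was the lowest of its group and still far higher than any pea-size library. The log2FC was 6.25 ± 0.93 (standard error; edgeR adjusted p = 0.0101), and 6.73 without mature replicate 1 (adjusted p = 0.000842). The call was lost without pea-size replicate 1 (log2FC 5.95, edgeR adjusted p = 0.0649) and without pea-size replicate 3 (5.98, adjusted p = 0.0629). Over all settings tried adjusted p ran from 4.09e-15 to 0.0649. In W it had 8.74, 3.89 and 18.7 CPM before and 65.7, 59.2 and 50.5 CPM at maturity, a smaller rise (log2FC 2.46, edgeR adjusted p = 0.0174). The excess of S over W, 3.73 on the log2 scale, was not called with 12 libraries (edgeR adjusted p = 0.0884) and was called without mature replicate 1 (4.24, adjusted p = 0.00797).

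The lowest log2FC within the same limits was that of evm.model.chr18.3614 on chromosome 18. It went from 708, 221 and 283 CPM in the pea-size libraries to 4.803, 0.762 and 2.04 CPM in the mature ones, which hold 43, 15 and 52 counts. Pea-size replicate 1 stood well above the other pea-size libraries, and all of them were far above the mature ones. The log2FC was -7.32 ± 0.89 (standard error; edgeR adjusted p = 0.00566), and -8.06 without mature replicate 1 (adjusted p = 0.00268). In W this gene model was near 0 at both stages, where the highest library had 0.445 CPM before and 3.10 CPM at maturity. It missed the threshold there (log2FC 2.42, standard error 2.25, edgeR adjusted p = 0.861). The interaction of stage and genotype was called (S minus W -9.87, standard error 1.60, edgeR adjusted p = 0.0113). The size of this difference includes a change in W that rests on almost no reads. At the pea-size stage the level in S was thus high where W had almost no reads.

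**Figure D4:**
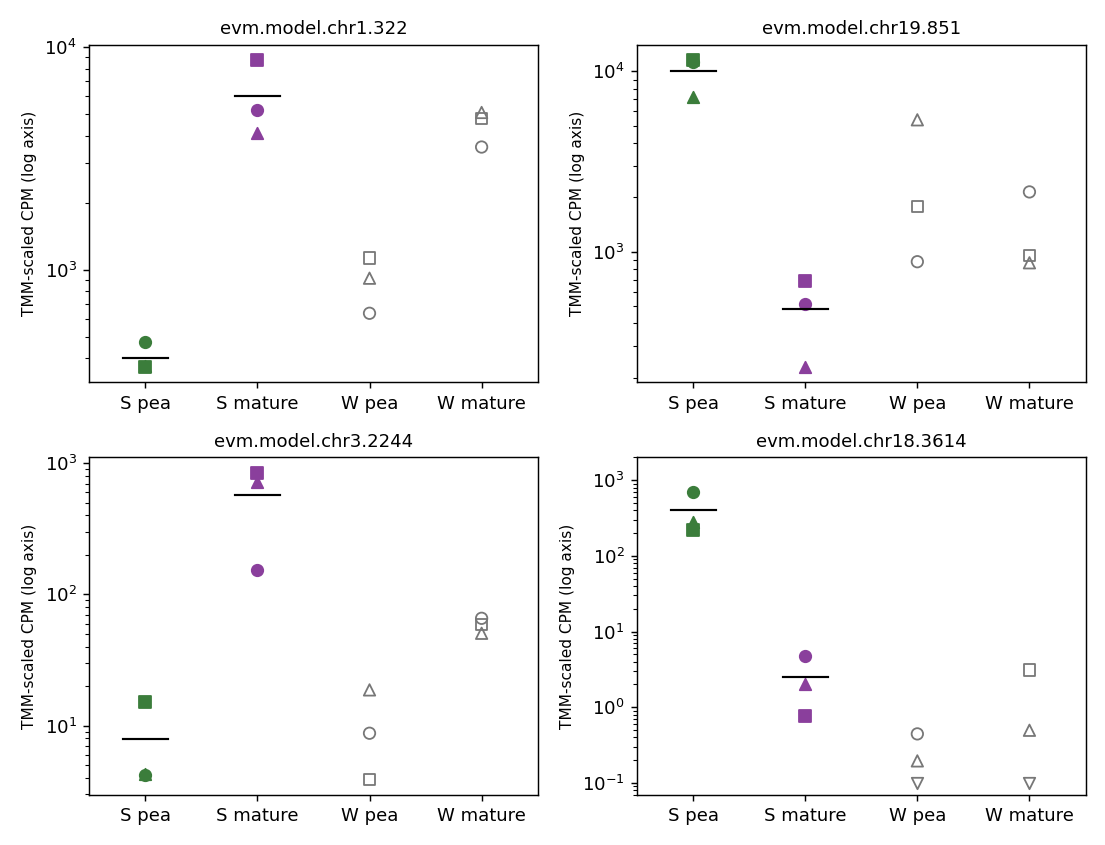
TMM-scaled CPM (log axis) of the 4 named gene models; filled points are S libraries (circle, square and triangle for replicates 1, 2 and 3), black lines are S means, open points are W libraries, and open downward triangles are W libraries with no count, drawn at 0.1. In every panel the mature and pea-size S libraries do not overlap, while the W libraries stay near 0 for evm.model.chr18.3614.

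The calls were spread over all 20 chromosomes. The share called up ranged from 2.53% of tested gene models on chromosome 15 to 6.64% on chromosome 1, and the share called down from 3.32% on chromosome 15 to 7.23% on chromosome 10. Without mature replicate 1 the range for upward calls was 11.5% (chromosome 13) to 15.2% (chromosome 1), near the overall 13.5%. Downward calls without it were more uneven. They reached 19.5% of 1235 gene models on chromosome 8 and 18.9% of 913 on chromosome 10, against 14.8% overall and a median of 14.2% over the chromosomes. Chromosome 8 held 144 gene models called up and 241 called down in that fit.

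**Figure D5:**
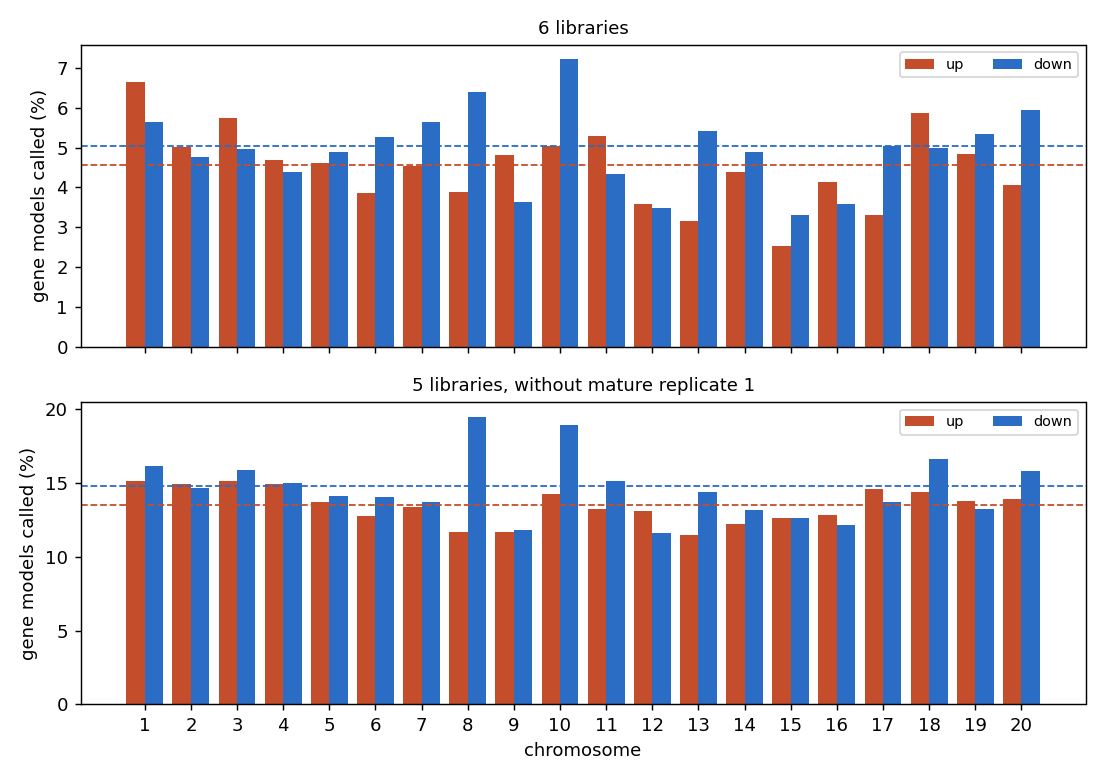
Percent of tested gene models called up (orange) and down (blue) on each chromosome with 6 libraries (top) and without mature replicate 1 (bottom); dashed lines are the shares over all chromosomes. The blue bars of chromosomes 8 and 10 stand highest in both panels, at 6.397% and 7.23% (top) and 19.5% and 18.9% (bottom).

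Gene models with adjacent places in the numbering of a chromosome were often called together. Of the 843 called up, 118 had an adjacent gene model also called up, a share of 13.998% against 6.59% of the gene models tested that were not called up. Of the 928 called down, 17.7% had an adjacent one called down, against 7.10% of those not called down. Without mature replicate 1 the shares were 26.8% against 18.2% upward and 32.4% against 19.8% downward. The numbering was taken as the order along the chromosome and could not be checked against coordinates. Adjacent gene models can be near-identical copies, and reads can then be shared or lost between them, so members of such runs are uncertain one by one.

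Runs of at least 3 adjacent gene models called in the same direction with 6 libraries numbered 4 upward and 10 downward, with 12 and 36 gene models. The longest was a run of 5 on chromosome 4, all called down. Summed over the run, the level was 516, 408 and 366 CPM in the pea-size libraries and 25.6, 18.6 and 28.3 CPM in the mature ones, and log2FC values were from -5.83 to -3.34 (edgeR adjusted p from 0.00285 to 0.0375). In W the sum was 5.22 to 21.3 CPM before and 2.26 to 29.3 CPM at maturity. The interaction was called for 4 of the 5. Another run on chromosome 4 held 4 gene models that together fell from 652, 607 and 536 CPM to 44.5, 67.9 and 62.8 CPM, with the interaction called for 3, and W between 30.5 and 52.2 CPM in all 6 libraries. Both runs were thus high only in the S pea-size libraries.

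Upward runs were fewer and shorter. Of 3 runs on chromosome 18 with 3 gene models each, the steepest had summed levels of 1.21, 0.471 and 2.15 CPM at the pea-size stage and 40.3, 124 and 82.1 CPM at maturity, with log2FC values from 5.61 to 6.47. The interaction was called for all 3, and in W the sum stood at 34.5 to 99.7 CPM at the pea-size stage and 47.0 to 201 CPM at maturity. Maturity in S thus reached levels that W had at both stages. A run of 3 on chromosome 15 went from 0.0757, 3.11 and 1.21 CPM to 19.9, 99.0 and 46.8 CPM in S (log2FC 4.97 to 5.62, edgeR adjusted p from 0.0239 to 0.04997). In W the sum was 13.7 to 24.5 CPM at the pea-size stage and 4.45 to 11.5 CPM at maturity (log2FC -2.97 to -1.18). The interaction was called for 1 of the 3 by edgeR (3 at an unadjusted p of 0.05 or less). In both of these runs mature replicate 1 of S was the lowest S mature library and lay above every S pea-size library.

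Whether the change in S differed from that in W was tested for all gene models in the 12 libraries, and the stage by genotype interaction was called for 186 with a higher log2FC in S (1.01% of those tested) and 237 with a lower one (1.29%), or 2.29% together. This total of 423 rested on single libraries, falling to 167 to 279 when any S pea-size library, S mature replicate 2 or 3, W pea-size replicate 1 or 2, or W mature replicate 2 or 3 was left out. Among the 843 called up in S it was called for 158, and among the 928 called down for 206, of which 205 were lower in S and 1 higher. These gene models were picked on the same S libraries, so a high share is favoured. The median log2FC in W was 0.33 for the 843 and -0.26 for the 928, against -0.04 for all gene models tested. Without mature replicate 1 the interaction was called for 1955 gene models (10.6%), of which 827 (4.49%) were higher and 1128 (6.12%) lower in S. Of the 843, 373 were then higher in S, and of the 928, 366 were lower and 1 was higher. For the rest of the calls a difference between genotypes was not shown, which does not make the changes equal.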

How the data were processed

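Pedicel RNA of both genotypes was sequenced in 3 libraries per genotype and stage. The authors trimmed reads with Cutadapt 3.4, mapped them with STAR 2.7.9a to the 'Noble' genome, discarded likely PCR duplicates, and counted reads mapped to 1 place with HTSeq 0.11.2 and scripts of their own. The deposited values are raw counts per gene model, and 5 entries of reads not counted on a gene model were dropped from library sizes and tests. Groups came from the genotype and developmental stage labels; the tissue type label reads mature for all libraries and was not used.

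Gene models passing filterByExpr (minimum count 10, minimum total 15) over the 12 libraries were tested with edgeR 4.0.16 (quasi-likelihood F test, robust, TMM) in R 4.3.3, in the 6 S libraries, in 5 without mature replicate 1, and for the interaction in 12. Each standard error is |log2FC| over the square root of the F statistic. Named gene models had to be called in the same direction with 6 and 5 libraries without overlap of stages; 1 rise and 1 fall were the largest in CPM, and 1 each the most extreme log2FC among those with at least 10 counts in each S library. Alternatives used DESeq2 1.42.0, limma 3.58.1, other scalings, filters and thresholds, a replicate block, and the omission of each library in turn. The libraries, lists and rules were chosen with earlier results of these data known. Fits were tested on simulated counts in which no library lay apart as a whole, so that test does not cover the case of mature replicate 1. Intervals are at a level of 95%. All pairs of S libraries in a group differed by more than sampling noise (chi-square per degree of freedom at least 20.4). Figures used Python 3.11.15 and matplotlib 3.10.9.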

Additional observations from a re-analysis of the deposited data

Results flagged for a closer look

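The change of evm.model.chr18.3614 differed between the genotypes by the stage by genotype interaction in 12 libraries (S minus W -9.87 on the log2 scale, edgeR adjusted p = 0.0113), with W near 0 counts at both stages. The interaction was also called upward for 158 of the gene models called up in S and downward for 205 of those called down. Reads on no gene model are outside the gene counts tested. Their share, taken over the same kinds of reads as above, was 30.4% in mature replicate 1 and 21.8% in mature replicate 2 of S. Both were above the 10.9% to 14.6% of the S pea-size libraries. In the 6 libraries of the series with a share over 14%, the gene model on chromosome 2 with the most counts took 2.22% to 12.3% of gene counts, and in the other 6 it took 0.218% to 0.663%. The cut at 14% lies in a gap between 12.5% (W mature replicate 2) and 14.6% (S pea-size replicate 3), so this split is a description.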

How the results depend on the processing

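With 6 libraries the counts of calls moved by over 1.5 times under several settings, and with 5 only under a higher threshold. A log2FC of at least 2 gave 504 up and 589 down with 6 libraries and 1156 and 1554 with 5. On 6 libraries DESeq2 gave 1700 up and 1689 down with adjusted p and 2266 and 2179 with unadjusted p, and limma voom with library quality weights, which gave mature replicate 1 a weight of 0.178 against 0.979 to 1.73 for the others, gave 2600 and 2850. Whether replicate numbers pair libraries across stages is not given in the sources used here. Correlations of deviations of same-numbered libraries were 0.0173, -0.0571 and 0.0320. Those of differently numbered libraries ran from -0.0634 to 0.0728. With so few libraries these values cannot decide it. The replicate block gave 352 up and 450 down with 6 libraries, 2501 and 2725 with 5, and 218 for the interaction against 423. It changed the call of none of the 4 named gene models. With each library left out the counts ran from 108 to 2489 up and from 166 to 2737 down with 6 libraries, and from 167 to 1955 for the interaction. For the interaction, the highest count is the one lacking S maturity replicate 1. Omitting S maturity 2 or 3 gave 241 or 268, S pea-size 1, 2 or 3 gave 167, 181 or 188, W pea-size 1 or 2 gave 234 or 279, and W maturity 2 or 3 gave 179 or 175. From the 5 libraries, leaving out 1 of the 2 mature libraries assumes that the lone one varies like the pea-size group. The named gene models kept direction in all 11 settings tried, and only evm.model.chr3.2244 lost its call, in 2 of them. The other filters, DESeq2's size factors and library totals kept the counts within 1.5 times. The cause of the shifts was not tested.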

Other observations

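The other 7 runs of at least 3 adjacent gene models called down together with 6 libraries are given by their summed levels. On chromosome 14, a run of 4 had 375, 302 and 400 CPM in the S pea-size libraries and 24.8, 33.7 and 39.1 CPM at maturity, with log2FC values between -3.58 and -3.31 (edgeR adjusted p from 0.00185 to 0.00566). In W that run had 122, 53.9 and 5.02 CPM and then 8.81, 58.2 and 53.9 CPM, and the interaction was called for 0 of the 4 by edgeR (1 at an unadjusted p of 0.05 or less). On chromosome 13, a run of 3 went from 1128, 546 and 778 CPM to 105, 99.9 and 194 CPM, where W had 12.2 to 63.5 CPM over both stages and the interaction was called for 0 of the 3 by edgeR (2 at an unadjusted p of 0.05 or less). On chromosome 3, a run of 4 went from 185, 138 and 149 CPM to 4.92, 13.0 and 21.0 CPM, where W had 1.24 to 29.9 CPM over both stages, with the interaction called for 0 of the 4 by edgeR (1 at an unadjusted p of 0.05 or less). A lower level in W over both stages is thus not by itself a called difference in the stage change. On chromosome 1, a run of 4 went from 587, 678 and 563 CPM to 81.9, 72.9 and 65.8 CPM. In W the same run stood at 629, 601 and 601 CPM at the pea-size stage and 192, 152 and 189 CPM at maturity, so both genotypes started from like levels and both were lower at maturity, with the interaction called for 2 of the 4. On chromosome 7, a run of 3 went from 105, 120 and 139 CPM to 2.90, 2.34 and 2.04 CPM in S, and stood in W at 82.7 to 111 CPM at the pea-size stage and 29.1 to 54.2 CPM at maturity, with the interaction called for 2 of the 3. Chromosome 8 held a pair of runs of 3. One went from 84.5, 112 and 92.2 CPM to 25.9, 11.5 and 9.49 CPM in S and stood in W at 105 to 364 CPM and then 74.7 to 87.6 CPM, with the interaction called for 0 of the 3 by edgeR (0 also at an unadjusted p of 0.05 or less). The other went from 57.1, 73.9 and 56.5 CPM to 13.6, 10.1 and 13.6 CPM in S and stood in W at 21.3 to 59.96 CPM and then 34.1 to 51.3 CPM, with the interaction called for 1 of the 3. What these gene models encode is not given in the sources used here.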
